A study of Jatropha curcas with 15 samples.

Results

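IPT5 and IPT9 are the cytokinin synthesis genes that a Jatropha curcas microarray followed in inflorescence buds after the buds had been sprayed with a cytokinin. Each gene was measured by 1 probe, CUST_12394 for IPT5 and CUST_34489 for IPT9, so 2 of the 41651 probes on the array are described here. They were chosen by probe number, with the study's results from these same arrays known. The study had reported IPT5 as downregulated and IPT9 as little changed. The probes carry the names of the Arabidopsis genes to which the study's table of hormone-related transcripts matched their sequences, and the array files themselves do not pair probes with genes.

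Cytokinins are adenine-derived hormones that promote cell division and keep shoot and inflorescence meristems active. Isopentenyltransferases, abbreviated IPT, catalyze the first and rate-limiting step of their synthesis by joining an isoprenoid side chain to adenine. In Arabidopsis, IPT5 belongs to the enzymes that use free ATP or ADP and supply most isopentenyladenine- and trans-zeatin-type cytokinin. IPT9 belongs to the enzymes that modify adenine in transfer RNA, and the breakdown of such transfer RNA releases cis-zeatin-type cytokinin. These roles are known from Arabidopsis and were not measured in J. curcas here.

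The buds came from plants about 1 year old, grown in a field, and received a spray of the synthetic cytokinin 6-benzyladenine (BA) at 1 mM with the wetting agent Tween-20. They were collected at the time of the spray, given as 0 h, and at 4 later times, 3, 12, 24 and 48 h. Each of these 5 groups had 3 biological replicates and 1 array per replicate, which made 15 arrays in all. All 5 groups carried the BA spray, and no bud sprayed without BA was among the arrays analysed, so BA, the time since spraying and the time of day cannot be told apart. The sources used here do not say how many plants or buds made up a replicate. The tissue held whole buds, and in such bulk samples fewer cells of a type and less RNA per cell cannot be told apart. Of 8 flower marker probes, 7 were well above background on all 15 arrays, and the exception, PISTILLATA (PI), was so on 5 of 15. Both marker probes of green tissue, LHCI and PSBR, were so on all 15 as well. Because 79.0% to 84.0% of all probes were well above background on an array, these counts say little about the tissue.

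The values are log2 processed spot intensities minus the 75th percentile of the same array, and are called levels below. A level of 0 therefore equals the intensity that 75% of an array's probes do not exceed, and a difference of 1 between levels is a 2-fold difference. The level of 1 probe cannot be set against that of another, because probes bind their targets with different efficiency. A probe entered the test if the scanner software marked it well above background on every array of some time point, and 34470 probes did, IPT5 and IPT9 among them. Between 79.0% and 84.0% of probes were well above background on an array, and the levels of all probes on 2 arrays of 1 time point correlated at 0.988 to 0.997. The arrays lay on 4 slides. Slide 1 held the 3 arrays of the 0-h time point and replicate 1 of the 3-h time point, and was scanned 6 days before the other 3 slides.

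Both probes were dim. The processed intensity of IPT5 lay between 25.0 and 87.4 scanner units over the 15 arrays, with a median of 45.7. Before any subtraction its spot medians were 75 to 146 units, beside a local background of 34.5 to 50 units. The software's background subtraction was not the plain difference of these. On replicate 1 of the 24-h time point they were 102 and 34.5 units, and the processed intensity was 45.6. The scanner software put the error of a single IPT5 intensity at 11.5% to 24.8% of the signal. IPT5 was well above background on 13 of 15 arrays, and the exceptions were replicate 3 of the 3-h time point and replicate 2 of the 24-h time point. The processed intensity of IPT9 lay between 51.0 and 90.0 units, with a median of 67.9 and an error of 12.6% to 21.3%. IPT9 was well above background on 15 of 15 arrays. No spot of either probe was saturated or marked as an outlier.

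**Figure D1:**
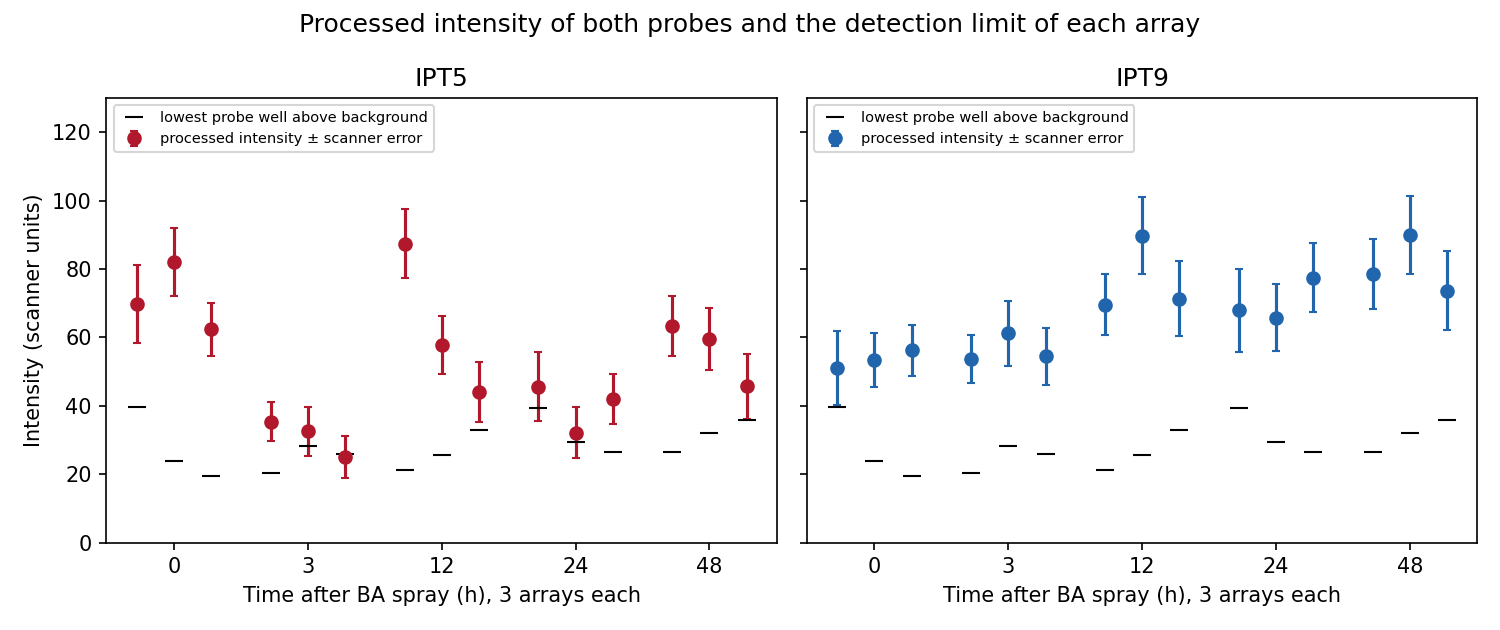
Processed intensity in scanner units (vertical axis) of IPT5 and IPT9 on each of the 15 arrays, ordered by time after BA spray (horizontal axis). Points show the intensity with the scanner software's error, and black dashes show the dimmest probe of the same array that was well above background. Replicate 3 of the 3-h time point is the only array whose IPT5 point, at 25.0 units, lies below its dash, at 26.0 units, and every IPT9 point lies above its dash.

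IPT5 was downregulated at the 3-h and 24-h time points. It fell 2.58-fold at 3 h and 2.03-fold at 24 h relative to the 0-h time point, and its levels at 12 and 48 h lay between those of the 0-h and the 24-h time points. The 24-h decrease depended more on the processing and on whether slide or scan day entered the fit. It was called under 10 of 17 alternatives, against 14 of 17 for the 3-h decrease, and its sign turned with slide as a fixed block (0.48). IPT9, the homolog of a transfer RNA isopentenyltransferase, did not pass the test at any time point. The within-array difference IPT5 minus IPT9 was lower after 0 h, as given with its limits after the separate values of the 2 probes.

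At 0 h the IPT5 level was -6.30, -6.15 and -6.34 in replicates 1, 2 and 3. At 3 h it was -7.29, -7.67 and -7.94, and at 12 h it was -6.13, -6.68 and -7.39. All 3 arrays of the 3-h time point thus lay below all 3 of the 0-h time point, with a gap of 0.94 between the nearest arrays, and the 12-h arrays spread over both. At 24 h the level was -7.08, -7.52 and -7.27, and at 48 h it was -6.79, -6.82 and -7.14. The arrays of both later time points lay below every 0-h array, with gaps of 0.73 and 0.44.

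At 0 h the mean IPT5 level was -6.27 ± 0.10, and it was lowest at 3 h, at -7.63 ± 0.33. The means of the 12-, 24- and 48-h time points were -6.73 ± 0.63, -7.29 ± 0.22 and -6.92 ± 0.19 (SD, n = 3 each). On the intensity scale the 5 groups, in order of time, averaged 71.4 ± 9.92, 31.0 ± 5.32, 63.1 ± 22.2, 39.9 ± 7.01 and 56.2 ± 9.33 units (SD, n = 3 each). From the highest to the lowest level, the time points ran 0, 12, 48, 24 and 3 h. No 2 neighbours in this order passed the test: the adjusted p was 0.189 for 12 against 0 h, 0.625 for 48 against 12 h, 0.405 for 48 against 24 h and 0.372 for 24 against 3 h.

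**Figure D2:**
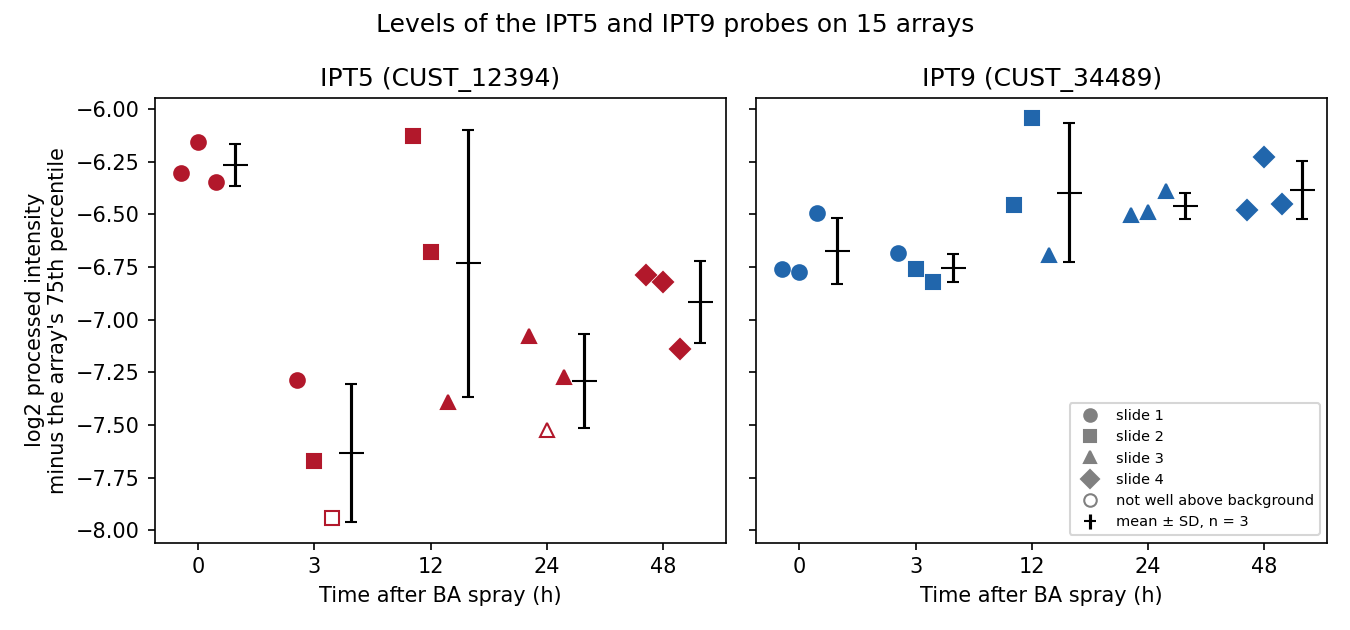
Level of IPT5 (left) and IPT9 (right) on each array, as log2 processed intensity minus the array's 75th percentile (vertical axis), by time after BA spray (horizontal axis). Marker shapes give the slide, open markers show arrays on which the probe was not well above background, and black bars give the mean ± SD (n = 3). The IPT5 arrays of 3, 24 and 48 h lie below all 0-h arrays, and those of IPT9 stay between -6.82 and -6.04.

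The IPT5 level at 3 h differed from that at 0 h by -1.37 (SE 0.26, 95% confidence interval -1.93 to -0.80), with an adjusted p of 0.00579 from limma. Its level at 24 h differed from that at 0 h by -1.02 (SE 0.26, interval -1.59 to -0.46), with an adjusted p of 0.0228. Both were called, which required an adjusted p of at most 0.05 and at least a 2-fold change. Of all tested probes, 0.896% were called lower at 3 h and 0.998% at 24 h. The 24-h change stood only just past the 2-fold limit, and its adjusted p rose above 0.05 when any 1 of 4 arrays was left out, to 0.0523 without replicate 1 and 0.0856 without replicate 2 of the 0-h time point, and to 0.0796 without replicate 2 and 0.0720 without replicate 3 of the 24-h time point. The 3-h change passed without any 1 of the 15 arrays, with values of -1.54 to -1.21.

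At 12 and 48 h the changes of IPT5 from 0 h did not pass. They were -0.47 (interval -1.03 to 0.099, adjusted p = 0.189) at 12 h and -0.65 (interval -1.21 to -0.086, adjusted p = 0.111) at 48 h. At 12 h the array of replicate 1, at -6.13, lay above all 0-h arrays, and without it the change was -0.77 with an adjusted p of 0.0231. Without replicate 3 of the 12-h time point, whose array enters the 48-h test only through the shared estimate of the spread, the adjusted p at 48 h was 0.0375.

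Over the whole time course, IPT5 passed the F test over the 4 contrasts with 0 h (adjusted p = 0.00651), as did 56.2% of all tested probes. Its level was 1.87-fold higher at 12 h than at 3 h (difference 0.90, interval 0.34 to 1.46, adjusted p = 0.0154), a step at which 23.1% of tested probes passed in the same direction. Without replicate 3 of the 3-h time point this step was 0.75 with an adjusted p of 0.0646, and without replicate 1 of the 12-h time point it was 0.60 with an adjusted p of 0.0587. The difference between 48 and 3 h was 0.72 (interval 0.15 to 1.28, adjusted p = 0.0659). The standard error of IPT5 was 0.26, against a median of 0.13 over all tested probes, and 13.1% of probes had a larger one.

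The arrays of the 3-, 24- and 48-h time points did not overlap those of the 0-h time point. This held in the lower direction for 21.1%, 17.8% and 17.2% of all tested probes that were measured on all 6 arrays. A two-sided exact permutation test of 3 arrays against 3 cannot go below 0.10, and it gave 0.10 for IPT5 at each of these times and 0.40 at 12 h.

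Slide and time point overlapped in part, so the IPT5 values were also taken within slides. On slide 1, the only array of the 3-h time point was at -7.29 and the 3 arrays of the 0-h time point averaged -6.27, a difference of -1.02 or 2.03-fold. On slide 2, the pair of 12-h arrays averaged -6.40 and the pair of 3-h arrays -7.81, a difference of 1.40. On slide 3, the 3 arrays of the 24-h time point averaged -7.29 and the only 12-h array, replicate 3, was at -7.39, a difference of 0.10. The decrease at 3 h and the higher level at 12 h were thus also present within slides 1 and 2. The difference between 24 and 12 h, -0.56 over all arrays, was not present within slide 3. The 48-h arrays had a slide of their own, so that at 48 h slide and time cannot be told apart.

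Settings of the processing, and blocks for slide or scan day, touched the 2 calls unequally. The blocks concern the layout of the arrays. All 0-h arrays lay on slide 1, scanned 6 days before the others, and of the later arrays only replicate 1 of the 3-h time point lay beside them. That 1 array alone links scan day 1 to the later times. The alternatives are also not independent, and some leave the estimate unchanged. The 3-h change of IPT5 passed the adjusted p under 15 of the 17 alternatives that gave a value and was called under 14, since it was below 2-fold after local background subtraction plus 50 (-0.75). With slide as a fixed block it was -1.02 with an adjusted p of 0.0466, a value that rests on the 1 array of the 3-h time point on slide 1. It did not pass with scan day as a fixed block (-1.02, adjusted p = 0.111) or after normexp background correction (-1.67, adjusted p = 0.205). The 24-h change passed the adjusted p under 12 of 17 and was called under 10, since it was below 2-fold without scaling (-0.84) and with scan day as a random block (-0.99). With slide as a fixed block, where it rests on the chain of arrays that share slides 1, 2 and 3, it was 0.48 with an adjusted p of 0.654.

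**Figure D3:**
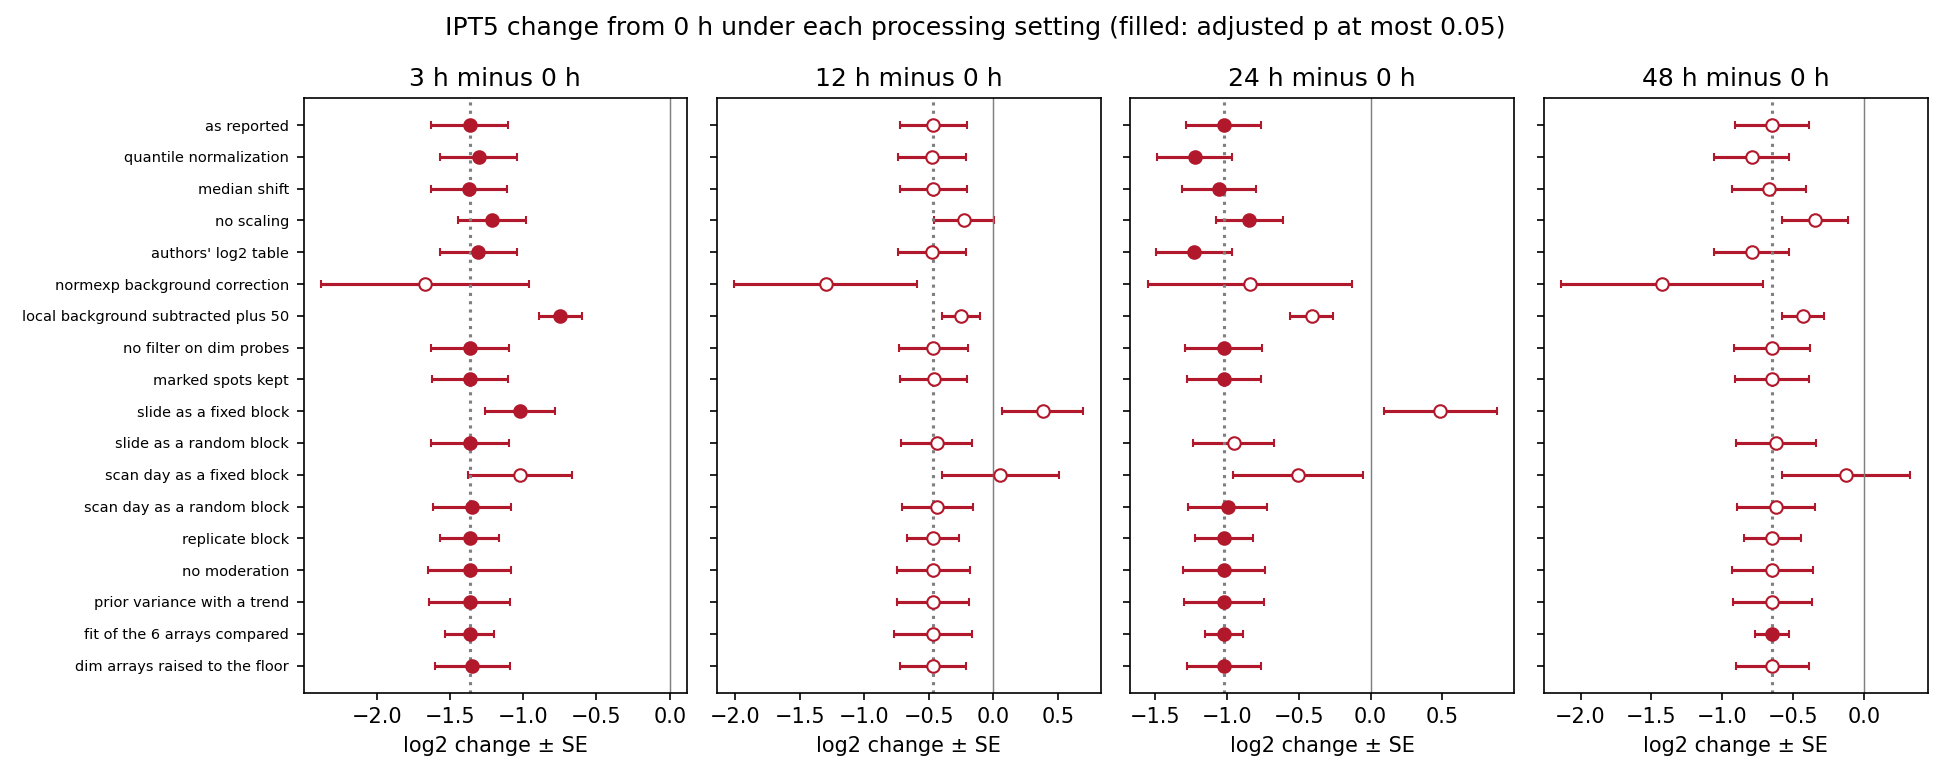
Change of the IPT5 level from 0 h at 3, 12, 24 and 48 h (panels, horizontal axis: log2 change with its standard error) under each processing setting (rows). Filled points passed an adjusted p of 0.05, the dotted line marks the value reported, and settings that could not give a value have no point. At 3 h every point lies below 0, from -1.67 to -0.75, and at 12 and 24 h the points with slide as a fixed block lie above 0, as does that with scan day as a fixed block at 12 h.

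The IPT9 level was -6.76, -6.77 and -6.49 in replicates 1, 2 and 3 at 0 h. It was -6.68, -6.76 and -6.82 at 3 h, and -6.45, -6.04 and -6.69 at 12 h. It was -6.50, -6.49 and -6.39 at 24 h. The 48-h levels were -6.48, -6.23 and -6.45. The arrays of 3, 12 and 24 h overlapped those of 0 h, and the 48-h arrays all lay above them, by 0.016 at the nearest. At 48 h, 21.1% of the probes measured on all 6 arrays lay above 0 h without overlap.

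The means of IPT9 were -6.67 ± 0.16 at 0 h and -6.75 ± 0.068 at 3 h. Those of the 12-, 24- and 48-h time points were -6.40 ± 0.33, -6.46 ± 0.061 and -6.38 ± 0.14 (SD, n = 3 each). The time points ran 48, 12, 24, 0 and 3 h from the highest to the lowest, and no 2 of the 5 differed past the threshold, with adjusted p values of 0.0609 to 0.956 over the 10 pairs. The lowest of these belonged to the step from 3 to 12 h (0.36, interval 0.051 to 0.66), which within slide 2 was 0.54.

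The difference of IPT9 from 0 h was -0.080 (interval -0.39 to 0.23, adjusted p = 0.774) at 3 h. It was 0.28 (interval -0.029 to 0.58, adjusted p = 0.149) at 12 h. At 24 h it was 0.21 (interval -0.092 to 0.52, adjusted p = 0.322), and at 48 h it was 0.29 (interval -0.017 to 0.60, adjusted p = 0.186). These intervals exclude a 2-fold change in either direction under the reported processing, and leave room for smaller ones. The sign at 3 h turned without scaling of the arrays (0.074), and that at 24 h turned after quantile normalization and in the authors' log2 table (-0.00016 and -0.0052). After normexp background correction the differences at 12, 24 and 48 h were all below 0 (-1.07, -0.38 and -0.98), with standard errors of 0.72 and none past the test. These rest on a 0-h mean that includes replicate 3, where normexp put IPT9 at -2.38, against -5.62 and -5.42 in replicates 1 and 2. The F test of IPT9 had an adjusted p of 0.10 under the reported processing. Without scaling, where the median of all tested probes itself shifted by 0.11 to 0.32, the IPT9 differences at 12 and 48 h passed (0.51 and 0.59, adjusted p = 0.00728 and 0.00731).

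Because a scaling of a whole array cancels in it, the difference between the 2 probes was also taken within each array. An additive background offset does not cancel, and both probes were dim. The difference log2 IPT5 minus log2 IPT9 was 0.45, 0.62 and 0.15 at 0 h. It was -0.60, -0.91 and -1.12 at 3 h, and 0.33, -0.64 and -0.70 at 12 h. It was -0.57, -1.03 and -0.88 at 24 h, and -0.31, -0.60 and -0.69 at 48 h. Of the 12 arrays from 3 to 48 h, 11 lay below all 3 arrays of 0 h, and the exception was replicate 1 of the 12-h time point.

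The 12 arrays from 3 to 48 h averaged -0.64 ± 0.38 (SD) and the 3 arrays of 0 h averaged 0.41 ± 0.24 (SD). The change of -1.05 had a two-sided exact permutation p of 0.0044 over all splits of the 15 arrays, where 0.0022 was the smallest possible. The change from 0 h was -1.29 for the 3-h arrays (exact p = 0.10) and -0.74 for the 12-h arrays (exact p = 0.20). It was -1.24 for the 24-h arrays and -0.94 for the 48-h arrays (exact p = 0.10 for each). Leaving out any 1 array kept the pooled change between -1.18 and -0.95, with exact p values of 0.00275 to 0.0220. The 2 probes thus changed unequally, in a pair chosen with the study's results from these same arrays known. Because all 0-h arrays lay on slide 1, the slide's part in this difference could be seen only in the 1 array of the 3-h time point on that slide, which was at -0.60.

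**Figure D4:**
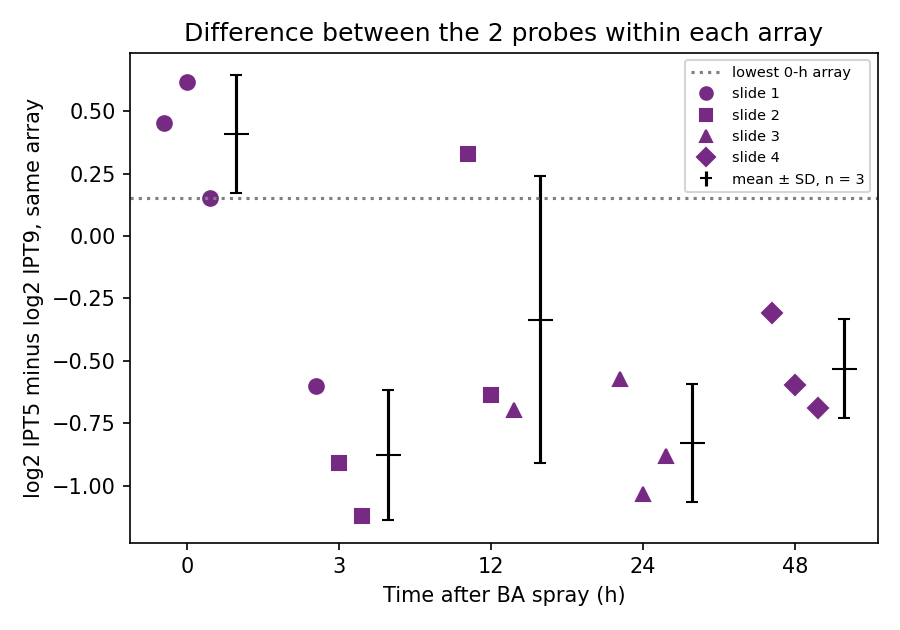
Difference between the log2 intensities of IPT5 and IPT9 on the same array (vertical axis) by time after BA spray (horizontal axis). Marker shapes give the slide, bars give the mean ± SD (n = 3), and the dotted line marks the lowest 0-h array, at 0.15. All later arrays but replicate 1 of the 12-h time point lie below the line.

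The other cytokinin-related probes of the array were taken from the study's table of hormone-related transcripts, which holds 27 cytokinin entries, IPT5 and IPT9 included. The study chose that table by homology to Arabidopsis genes. All 27 probes were tested, and 18 of them passed the F test over the time course, beside 56.2% of all tested probes. At 3 h, 1 of the 27 was called higher and 1 lower, beside 1.69% and 0.896% of all tested probes. The 12-h time point had 0 called higher and 3 lower, beside 3.5% and 5.54%. The 24-h time point had 1 called higher and 2 lower, beside 2.18% and 0.998%, and the 48-h time point had 0 called higher and 1 lower, beside 1.88% and 0.818%. In order of time the median change of the 27 was -0.064, 0.038, 0.020 and -0.0050, beside -0.042, 0.025, 0.015 and 0.018 over all tested probes. Ranked from the lowest change, IPT5 was number 1 of the 27 at 3 h and number 5 at 12 h, and number 2 at 24 h and number 3 at 48 h.

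In the two-component pathway, membrane histidine kinases sense cytokinin, phosphotransfer proteins carry the signal to the nucleus, and response regulators there turn target genes on or feed back on the pathway. The receptor homolog AHK3 passed the test at 3 h (-0.39, adjusted p = 0.0243) and at 24 h (-0.32, adjusted p = 0.0489), with changes of less than 2-fold, and the 24-h value did not pass under 12 of 18 alternatives. AHP2, a phosphotransfer protein, changed by 0.41 at 3 h without passing (adjusted p = 0.113). ARR1, a type-B response regulator that activates transcription, passed at 12 h (0.33, adjusted p = 0.0375). CYCD3;3, a D-type cyclin, was nearest to the threshold at 3 h (-0.47, adjusted p = 0.0919), and SPY, an O-fucosyltransferase of gibberellin and cytokinin responses, stayed within 0.013 to 0.13 of 0 h.

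ARR3 and ARR8, type-A response regulators that in Arabidopsis are induced by cytokinin and dampen its signal, were the members of the list that passed in the higher direction at both 3 and 24 h, the 2 times at which IPT5 was called lower. ARR3 was at -3.39, -2.89 and -3.04 at 3 h and at -3.31, -3.26 and -2.06 at 24 h, against -4.64, -4.21 and -4.01 at 0 h. No array of either time overlapped the 0-h arrays, and 14.4% and 18.6% of all tested probes measured on all 6 arrays lay higher without overlap at 3 and 24 h. ARR3 was 2.27-fold higher at 3 h (1.18, adjusted p = 0.0421) and 2.66-fold higher at 24 h (1.41, adjusted p = 0.0193). ARR8 was 1.87-fold higher at 3 h (0.91, adjusted p = 0.0168) and 1.82-fold higher at 24 h (0.87, adjusted p = 0.0201), past the adjusted p and short of 2-fold.

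These response regulator values were sensitive to single arrays. The adjusted p of ARR3 at 3 h lay above 0.05, at up to 0.126, when any 1 array of the 0-, 3- or 48-h time points or replicate 1 of the 12-h time point was left out. At 24 h it did so without replicate 1 or 2 of the 0-h time point or replicate 3 of the 24-h time point, at up to 0.0731. ARR8 did not pass at 3 h without replicate 1 or 2 of the 0-h or replicate 2 or 3 of the 3-h time point, at up to 0.0588, nor at 24 h without replicate 1 or 2 of the 0-h or replicate 3 of the 24-h time point, at up to 0.0888. With slide as a fixed block ARR3 at 24 h was -0.042 and ARR8 was -0.23.

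At 12 h neither response regulator passed, at 0.54 (adjusted p = 0.246) for ARR3 and 0.32 (adjusted p = 0.274) for ARR8. Among the 12-h arrays, replicate 3 had the lowest IPT5 level, at -7.39, and the highest levels of ARR3, at -3.06, and ARR8, at -4.43. Replicates 1 and 2 did not follow this order. Replicate 1 was higher than replicate 2 in IPT5 (-6.13 and -6.68), ARR3 (-3.88 and -4.30) and ARR8 (-4.99 and -5.32). Replicate 3 was also the lowest 12-h array for IPT9 (-6.69) and for the list probes ACC1, AHB2, ARR1, AT2G18300, CTL1, CYCD3;3, PGP4 and QUA2. It was the highest for ACR4, AHK3, ATHB2, ERF72, GCR1, KNAT3, MCB1 and RPN12a. For ACT2, AHP2, CIPK3, ENT3, SPY, STM and VND6 it was the middle one. Being the lowest or highest of the 3 arrays was thus common in the list and not particular to IPT5, ARR3 and ARR8. Replicate 3 was the 12-h array on slide 3, and the part of the slide in these values was not tested. ARR3, ARR8 and IPT5 were compared with the same 0-h arrays, so their values stand side by side here and were not related to each other by a test.

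**Figure D5:**
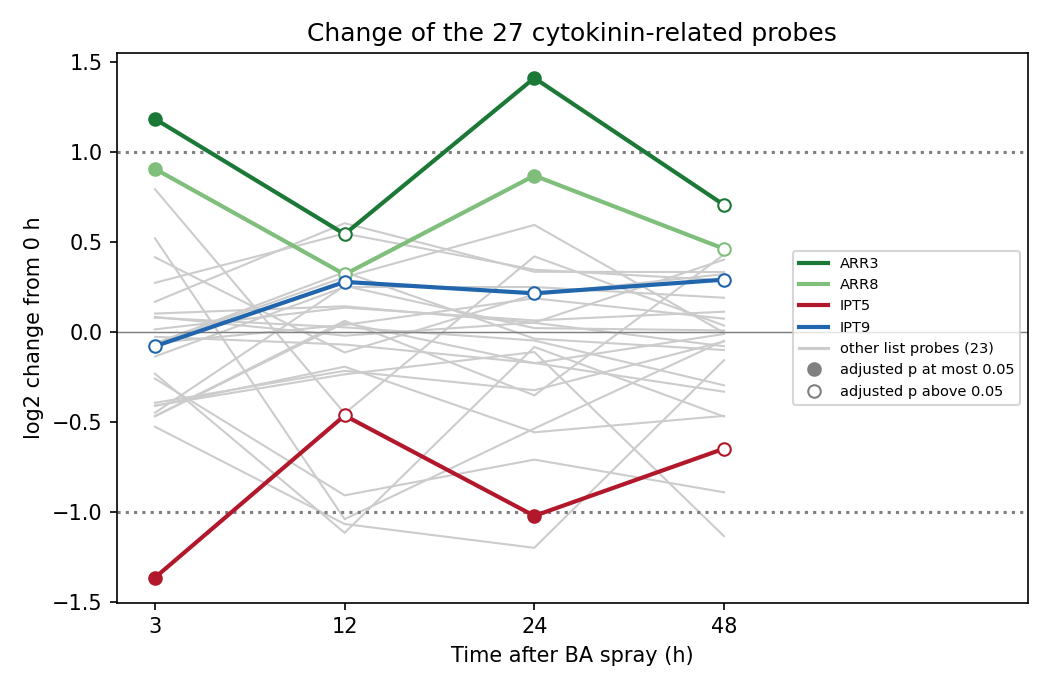
Log2 change from 0 h (vertical axis) of the 27 cytokinin-related probes by time after BA spray (horizontal axis). IPT5, IPT9, ARR3 and ARR8 are coloured, with filled points for values that passed, and dotted lines mark 2-fold. IPT5 is the lowest line at 3 h, at -1.37, and IPT9 stays between -0.080 and 0.29.

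The other called list members are not enzymes of cytokinin synthesis. ACC1, the acetyl-CoA carboxylase of fatty acid elongation, was lower at 12 h (-1.04, adjusted p = 0.00317), and so was QUA2, a pectin methyltransferase of cell adhesion (-1.12, adjusted p = 0.00372). AHB2, a plant hemoglobin, was lower at 12 h (-1.07, adjusted p = 0.0187) and at 24 h (-1.20, adjusted p = 0.0248). Its adjusted p was above 0.05 without replicate 1 or 2 of the 0-h time point at both times, without replicate 3 of the 12-h time point at 12 h, where the change was then -0.67, and without replicate 2 or 3 of the 24-h time point at 24 h. ATHB2, a homeodomain-leucine zipper factor of the shade response, was lower at 48 h (-1.14, adjusted p = 0.00444). With slide as a fixed block the 12-h change was -0.65 for ACC1 (adjusted p = 0.415), -0.18 for QUA2 (adjusted p = 0.806) and -0.78 for AHB2 (adjusted p = 0.202), and the 24-h change of AHB2 was -0.12 (adjusted p = 0.944). With scan day as a fixed block these 4 changes did not pass either, nor did ATHB2 at 48 h (-1.51, adjusted p = 0.0597). The changes of the 20 probes of the list that were neither called nor one of the IPT probes lay between -0.91 and 0.91. Of these, 10 passed the adjusted p at some time point. Among all tested probes 50.3% did, a share that includes called probes, which the 20 leave out, so the 2 shares are not alike. Of the homeobox genes known in Arabidopsis to raise IPT expression or to belong to the same family, KNAT3 passed at 3 h (-0.45, adjusted p = 0.00320) and at 12 h (0.26, adjusted p = 0.0215). STM did not pass at any time point, with changes of -0.33 to -0.028.

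The isoprenoid side chain that IPT enzymes attach comes in part from the plastid pathway that starts with deoxyxylulose phosphate synthase (DXS). The DXS probe CUST_4773 was at -0.80, -0.90 and -0.76 at 12 h, against 1.20, 1.5 and 0.97 at 0 h. It was 4.12-fold lower at 12 h (-2.04, adjusted p = 2.84e-06), passed the adjusted p with less than 2-fold at 24 h (-0.92, adjusted p = 0.00840) and at 48 h (-0.73, adjusted p = 0.0217), and did not pass at 3 h (-0.40, adjusted p = 0.164). Its lowest time point, 12 h, was thus not that of IPT5, 3 h. ERA1 and GGB, subunits of protein prenyltransferases that use longer isoprenoid chains, did not pass at any time point, with changes of -0.050 to 0.20 and -0.39 to -0.083.

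Among the 136 compared probes that carry a name in the study's hormone or flowering tables, those nearest to IPT5 in pattern were ATPHAN (CUST_31291), ULTRAPETALA 1 and HAB1. Nearness was the root mean square difference between levels over the 15 arrays, each probe centred on its own mean, and it was 0.40, 0.44 and 0.44 for these. ATPHAN, also named AS1, a MYB factor of leaf polarity, was 176th of all 34304 probes compared, so unnamed probes lay nearer, the nearest at 0.29. ULTRAPETALA 1 was 556th and HAB1 599th. These probes were picked for nearness to IPT5 on the same arrays, so a decrease at 3 h follows in part from that choice. At 3 h ATPHAN fell by 0.54 (adjusted p = 0.0143), and ULTRAPETALA 1, a regulator of meristem size, fell by 0.75 (adjusted p = 0.00107). HAB1, a protein phosphatase of abscisic acid signalling, was at -0.33 (adjusted p = 0.0485) and did not pass under 12 of 18 alternatives. At 24 h ATPHAN was at -0.37 (adjusted p = 0.0617) and ULTRAPETALA 1 at -0.13 (adjusted p = 0.428), neither past the test, and HAB1 passed (-0.37, adjusted p = 0.0276) but not with slide as a fixed block (adjusted p = 0.445). IPT5 itself deviated from its own mean by a root mean square of 0.55, and 9937 of the probes compared lay nearer to it than that.

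For IPT9 the nearest named probes were ERA1 (0.16), AHBP-1B (CUST_15566, 0.17), a bZIP factor also named TGA2, and RCN1 (0.19), a phosphatase subunit. None of them passed the test from 0 h at any time point, which follows in part from their choice by nearness to IPT9. Each of the 3 is a probe with small changes, and ERA1 was 256th of all probes compared. The 2 IPT probes lay 0.54 apart, and IPT9 was 8406th of all compared probes in nearness to IPT5.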

How the data were processed

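The authors scanned 15 one-colour Agilent arrays carrying 60-base probes designed from expressed sequence tags, and extracted them with Feature Extraction 10.7.3.1 per the file headers. The deposited processed intensities are background-subtracted by that software on a linear scale, and a deposited log2 table of the series, of which 99.99% of values lay within 0.1 of quantile-normalized processed intensities, was used as an alternative. The sources used here do not name the authors' scaling between arrays or their test.

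Control spots and outlier-marked spots were dropped here, repeated spots averaged, and the 75th percentile of each array subtracted from its log2 values. A probe was tested if every array of some time point showed it well above background. Of 41651 probes 7181 were not tested, and for 19 of these the reason was that a time point had only outlier-marked spots. The 15 arrays were fitted with limma 3.58.1 (R 4.3.3, 2.55 prior degrees of freedom) in a model of time point, adjusted by Benjamini-Hochberg over the 34470 tested probes. Adjusted p values come from limma throughout, by a two-sided moderated test or the F test over the 4 contrasts with 0 h. Calls required at least 2-fold and an adjusted p no higher than 0.05, and "passed" refers to the adjusted p alone. Confidence intervals cover 95%. Exact permutation tests were two-sided. The number of arrays limits the precision.

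Alternatives were quantile normalization, median shift, no scaling, the authors' log2 table, normexp background correction with an offset of 50, no filter or a filter for all 15 arrays, marked spots kept, slide, scan day or replicate number as a block, no moderation, a prior variance with a trend, a fit of the 6 arrays compared, and fits lacking 1 array. Local background subtraction plus 50 and dim values raised to the array's floor were chosen after seeing the data. On simulated data for the 3-h comparison, the fit recovered 74.5% of 200 probes changed by 1 and 95.5% of 200 changed by 2 on the log2 scale, among 34305 probes. The simulated noise was independent between arrays, without a slide effect, and no further probe changed, whereas 12.1% of real probes passed at 3 h. The shares hold over all probes and not for IPT5, whose standard error only 13.1% of probes exceeded.

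The members, the gene lists and the rule for named probes (both IPT probes, the cytokinin entries of the study's hormone table, 3 isoprenoid probes and the 3 named probes nearest to each IPT probe) were chosen with earlier results of these data known. No probe sequence is printed, and the probes were not placed on a genome. The labels number the replicates, and the study's methods call them biological. Python 3.11.15 with matplotlib 3.10.9 drew the figures.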

Additional observations from a re-analysis of the deposited data

How the results depend on the processing

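The 3-h change of IPT5 kept its direction under all 17 alternatives that gave a value and lay between -1.67 and -0.75. Some of these cannot move the estimate, namely no filter, no moderation, a prior variance with a trend, the replicate block and the fit of the 6 arrays compared. They alter only its error or adjusted p. The authors' log2 table nearly repeats quantile normalization, so the 17 are not independent of each other. The 3-h change did not pass after normexp (-1.67) or with a fixed block for scan day (-1.02). The 24-h change of IPT5 did not pass after normexp (-0.84), local background subtraction plus 50 (-0.41), with a random slide block (-0.95) or a fixed scan-day block (-0.50), and it reversed with a fixed slide block (0.48). At 12 h IPT5 reversed with a fixed block for slide (0.38) or scan day (0.054), and at 48 h it passed in the fit of the 6 arrays compared (-0.65). The F test of IPT5 did not pass after normexp (adjusted p = 0.346), and neither did the step from 3 to 12 h (0.37). Leaving out each array in turn gave IPT5 changes of -1.54 to -1.21 at 3 h and -0.77 to -0.14 at 12 h. It gave -1.13 to -0.91 for the 24-h and -0.71 to -0.54 for the 48-h time point, an F-test adjusted p of 0.000799 to 0.0212, and 0.60 to 1.23 for the step from 3 to 12 h.

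IPT9 reversed at 3 h without scaling (0.074), at 24 h after quantile normalization (-0.00016) and in the authors' log2 table (-0.0052), and after normexp at 12 h (-1.07), 24 h (-0.38) and 48 h (-0.98). Its difference between 48 and 12 h reversed after quantile normalization (-0.10) and a median shift (-0.011). Without scaling it passed at 12 h (0.51), at 48 h (0.59) and by the F test (adjusted p = 0.00551). Leaving out each array gave IPT9 differences of -0.13 to 0.0098 at 3 h and 0.10 to 0.43 at 12 h. It gave 0.17 to 0.30 for the 24-h and 0.21 to 0.38 for the 48-h time point, and an F-test adjusted p of 0.0250 to 0.204. Its 12-h difference passed only without replicate 3 of the 12-h time point (0.43), and its F test without replicate 2 (0.0445) or 3 (0.0250) of that time point. Normexp fitted a background mean of -1007 units on replicate 3 of the 0-h and -406 on replicate 1 of the 24-h time point, against -30.2 to -3.19 on the other 13 arrays, and on those 2 arrays IPT5 stood at -2.36 and -3.62 and IPT9 at -2.38 and -3.59, with no other array above -5.06. Their lowest spots minus local background were at -23246 and -6414.5 units. Normexp shifted the median of all tested probes by -0.22 to -0.12, and no scaling shifted it by 0.11 to 0.32.

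The list probes called at 3 h numbered 2 as reported. They were 1 after local background subtraction plus 50, without the filter, with the filter for all arrays, with scan day as a fixed or random block and without moderation, 3 without scaling, and 0 after normexp. The 3 called at 12 h became 2 after local background subtraction and in the fit of the 6 arrays compared, and 0 without scaling and with either fixed block, slide or scan day. The 3 called at 24 h became 2 with the filter for all arrays, in the fit of the 6 arrays compared and with either random block, 1 after local background subtraction, and 0 after normexp and with either fixed block. The 1 called at 48 h became 0 without scaling and with the fixed scan-day block, and 2 after normexp. Without 1 array these counts ranged over 1 to 2 at 3 h, 0 to 4 at 12 h, 0 to 4 for the 24-h and 1 to 2 for the 48-h time point. ARR8 reversed after normexp at 3 h (-0.15) and with the fixed slide block at 24 h (-0.23), as did ARR3 at 24 h (-0.042). Leaving out 1 array also took the adjusted p above 0.05 for AHK3 at 3 and 24 h, ARR1 and KNAT3 at 12 h, ATPHAN at 3 h, HAB1 at 3 and 24 h and DXS at 48 h, at up to 0.176. The within-array difference kept its direction and stayed below an exact p of 0.05 under 4 alternatives (-1.03 to -0.41) and without any 1 array. The cause of these changes was not tested, apart from the normexp values given above.

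Same-numbered arrays of unlike time points correlated at -0.27 to 0.38 in their deviations, with a mean of 0.017, against -0.0087 for arrays of unlike number. The labels do not say whether equal numbers pair samples, and these correlations cannot exclude it. With the replicate block IPT5 was at -1.37 (adjusted p = 0.00312) at 3 h and -1.02 (adjusted p = 0.0108) at 24 h, and no call of IPT5 or IPT9 changed. Requiring a signal well above background on every array removed IPT5, and the fixed slide block gave no 48-h value. Low signal limits the precision of both probes, at 4.03 to 8.71 times the scanner error for IPT5 and 4.70 to 7.92 times for IPT9.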
